A study of Mus musculus with 12 samples.

Results

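The genes of cholesterol synthesis and of oxysterol production were described in mouse pancreatic stellate cells (PSCs), the fibroblast precursors of the pancreas, cultured alone or with other cells. The genes were taken from a fixed list of 32 symbols covering the synthesis enzymes, the SREBP transcription factors and their regulators, *Ch25h*, the LXR receptors and sterol carriers. All 32 were found among the 39179 genes of the count table, 31 by symbol and *Msmo1* by gene ID under its older symbol *Sc4mol*. mCherry-labelled PSCs were grown for 72 h alone (mono-PSCs), in 2-way co-culture with EGFP-labelled pancreatic cancer cells (2W-PSCs), or in 3-way co-culture with the cancer cells and TagBFP-labelled macrophages (3W-PSCs), with 4 libraries for each culture. No culture received a drug or other treatment, all were kept in a minimal medium with 0.5% serum, and mCherry-positive cells were sorted before RNA extraction. The PSCs are 1 SV40-immortalised clone, given the strain C57BL/6 in the labels, the cancer cells (PCCs) are an established mouse line and the macrophages (MØs) an established mouse macrophage line. The flasks held the same total number of cells in each culture, so PSCs made up a smaller share of the co-cultures. All values below are for RNA in sorted cells: fewer cells of a type and less RNA per cell cannot be told apart, and sterols were not measured.

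Cells make cholesterol from acetyl-CoA through mevalonate, squalene and lanosterol, and the genes for most of these enzymes are driven by the transcription factor SREBP2. SREBP2 is carried from the endoplasmic reticulum by SCAP for activation when sterols are scarce, and is held back by INSIG proteins when sterols are plentiful. The product of CH25H, an oxysterol made from cholesterol, strengthens that retention and also activates the LXR receptors, which switch on the cholesterol pump gene *Abca1*. *Ch25h* is best known as an interferon- and inflammation-responsive gene of macrophages. The comparison of the cultures therefore asks whether the synthesis genes moved in the direction opposite to *Ch25h*.

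Promoter sequence is shown for 3 genes that stand for the different parts of the circuit, namely *Hmgcs1*, an early enzyme and the only gene of the list with the sterol regulatory element core in its window, *Ch25h* itself, and *Abca1*. Capitals mark the letters TCACNCCAC (the sterol regulatory element core bound by SREBPs) and CCAAT (the box bound by NF-Y, a factor that works beside SREBP2), each searched on both strands, so that CCAAT on the other strand reads ATTGG. The sequences end just before the annotated gene starts and are given 5′ to 3′ in the sense of the gene, from build GRCm38.p6. They lie at chr13:119690101-119690350 on the plus strand for *Hmgcs1*, chr19:34475165-34475398 on the minus strand for *Ch25h*, and chr4:53159896-53160145 on the minus strand for *Abca1*, next to the genes themselves at chr13:119690379-119708260, chr19:34473778-34475164 and chr4:53030787-53159895.
Hmgcs1: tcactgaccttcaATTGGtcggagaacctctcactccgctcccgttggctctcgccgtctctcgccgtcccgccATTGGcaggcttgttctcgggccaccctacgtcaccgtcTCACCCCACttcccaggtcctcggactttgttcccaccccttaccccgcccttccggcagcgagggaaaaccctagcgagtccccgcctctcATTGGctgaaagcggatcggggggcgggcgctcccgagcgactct
Ch25h: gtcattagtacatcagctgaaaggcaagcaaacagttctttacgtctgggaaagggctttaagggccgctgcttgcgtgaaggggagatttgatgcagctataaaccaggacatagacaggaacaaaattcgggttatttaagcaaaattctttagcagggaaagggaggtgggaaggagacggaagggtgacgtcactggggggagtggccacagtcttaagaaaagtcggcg
Abca1: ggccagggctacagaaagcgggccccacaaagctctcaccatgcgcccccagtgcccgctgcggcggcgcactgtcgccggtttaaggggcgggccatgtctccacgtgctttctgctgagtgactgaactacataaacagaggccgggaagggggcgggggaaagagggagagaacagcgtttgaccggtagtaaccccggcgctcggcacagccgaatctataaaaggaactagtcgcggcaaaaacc

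The *Hmgcs1* sequence held the sterol element core once, starting 137 bases before the RefSeq start, and 3 CCAAT boxes, whereas neither motif occurred in the *Ch25h* and *Abca1* sequences. A RefSeq window of 250 bases before to 50 bases after the start was matched for 26 of the 32 genes. CCAAT was found in 15 of the 16 synthesis enzymes with a window, against 41.1% of all 27025 genes with a window and 43.7% of those tested in the 3W to mono comparison. *Acat2* was the enzyme without it. TCACNCCAC was in 1 of the 16 enzymes, 6.25%, against 1.44% of all genes. The letters TTCNNNGAA (bound by STAT factors) were in 2 of the 26 genes, *Ggps1* and *Ebp*, against 9.55% of all genes. These matches describe letters in a short window and do not show binding.

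In 3W-PSCs the synthesis enzymes were lower as a group and *Ch25h* and *Abca1* were higher than in mono-PSCs. Of the 19 synthesis enzymes, 16 fell, none rose, and 3 did not pass the test. The median log2 fold change was -0.84, with a range from -1.16 to -0.14, against 0.01 over all genes tested. Outside the enzymes *Insig1* and *Stard4* fell, while *Srebf1*, *Scap*, *Ch25h* and *Abca1* rose. Of the 32 genes, 31 passed the filter on low counts and 22 were called at an adjusted p under 0.05, against 26.4% of the 11551 genes tested, of which 13.0% were called lower and 13.4% higher. In 16 of the 32 genes, 14 of them enzymes, every 3W library lay below every mono library, and in 4 every one lay above, against 12.1% and 13.9% of the genes tested. All tests are edgeR quasi-likelihood tests with Benjamini-Hochberg adjustment over every gene tested. They set the difference between cultures against the spread among the 4 libraries of each culture, with that spread moderated across genes. The p-values therefore refer to these libraries only.

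The drop covered the mevalonate steps from their start. *Hmgcs1*, which condenses acetyl-CoA units into HMG-CoA, was at 848, 838, 977 and 909.9 counts per 1000000 (CPM) in mono-PSC replicates 1 to 4. It was at 668, 566, 689.8 and 638 CPM in 2W-PSCs, and 3W-PSCs had 428, 452, 477 and 446 CPM. The 3 cultures did not overlap, with mono-PSCs highest and 3W-PSCs lowest. The 3W to mono log2 fold change was -0.99 (SE 0.14, adjusted p = 5.84e-05). *Pmvk*, the kinase that acts on phosphomevalonate, had the lowest fold change of the enzymes, with 98.6, 143, 139.7 and 123 CPM in mono-PSCs against 49.1, 55.0, 58.9 and 62.6 CPM for 3W-PSCs (log2 fold change -1.16, SE 0.16, adjusted p = 3.49e-05). All 3W libraries lay below all mono libraries.

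*Mvk*, *Mvd*, *Fdps* and *Acat2* fell as well, with no overlap between 3W- and mono-PSCs in any of these genes. *Mvk*, the mevalonate kinase, was at 112 ± 16.8 CPM (SD, n = 4) in mono-PSCs and 54.3 ± 5.48 CPM in 3W-PSCs (log2 fold change -1.05, adjusted p = 8.73e-05). *Mvd*, which makes isopentenyl diphosphate, changed by -0.93 (adjusted p = 0.00155), *Fdps*, the farnesyl diphosphate synthase, by -0.94 (adjusted p = 0.000359) and *Acat2*, the cytosolic thiolase that feeds the pathway, by -0.88 (adjusted p = 0.000914). *Idi1*, the isomerase, and *Ggps1*, which leads towards protein prenylation, did not pass the test. *Idi1* was sparse, at 2.21 to 7.75 CPM over the 12 libraries (3W to mono log2 fold change -0.36, SE 0.40, adjusted p = 0.541), and *Ggps1* was at 13.1 to 24.3 CPM (-0.15, SE 0.22, adjusted p = 0.666). Windows of 75 bases near the 3′ end of the transcripts also occurred in other genes for 25.4% of *Acat2*, 43.5% of *Fdps* and 37.1% of *Idi1*, so their counts are less certain. *Fdps* also shares 1124 exonic bases with *Gm43738* on the same strand.

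The later steps behaved similarly, with 10 of the 11 squalene and sterol enzymes lower. *Cyp51*, the lanosterol demethylase, was at 631, 996, 1181 and 1027 CPM in mono-PSCs, at 717, 817, 756 and 855 CPM in 2W-PSCs, and 3W-PSCs had 475, 477, 468 and 494 CPM. The 3W libraries lay close together and below every library of the other cultures, while 2W- and mono-PSCs overlapped. The log2 fold change from mono to 3W was -1.0 (SE 0.18, adjusted p = 0.000406). *Msmo1*, which removes the methyl groups at carbon 4 of the sterol, was at 864, 1230.0, 1846 and 1508 CPM in mono-PSCs and at 609.8, 622, 667 and 704 CPM in 3W-PSCs (-1.07, SE 0.20, adjusted p = 0.000613). *Sqle*, the squalene epoxidase, was at 268, 298, 379 and 367 CPM in mono-PSCs and at 166, 164, 202 and 205 CPM in 3W-PSCs (-0.84, SE 0.16, adjusted p = 0.000815). Neither gene overlapped between these cultures.

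Smaller or less even changes were seen at other sterol steps. *Ebp*, the sterol isomerase (-0.83, adjusted p = 0.00157), *Tm7sf2*, a sterol reductase (-0.81, adjusted p = 0.00496), *Nsdhl*, a sterol dehydrogenase (-0.74, adjusted p = 0.00897), and *Fdft1*, the squalene synthase (-0.69, adjusted p = 0.00255), all fell. *Dhcr7*, which completes cholesterol by reducing its precursor, spread more, at 32.9, 29.2, 52.6 and 62.1 CPM in mono-PSCs and at 13.4, 16.4, 37.3 and 21.2 CPM in 3W-PSCs. Its 3W replicate 3 lay within the mono range, and the log2 fold change was -1.01 (SE 0.30, adjusted p = 0.0174). *Lss*, the lanosterol synthase, changed by -0.49 (adjusted p = 0.0405) and *Sc5d*, a sterol desaturase, by -0.50 (adjusted p = 0.0238). *Hsd17b7*, a sterol ketone reductase, did not pass the test, at 110.2 ± 12 CPM in mono-PSCs and 100.1 ± 9.70 CPM in 3W-PSCs (-0.14, SE 0.15, adjusted p = 0.502). *Fdft1* shares 774 exonic bases with *Ctsb* on the opposite strand and *Tm7sf2* shares 532 with *Vps51* on the same strand, so the counts of these pairs may not be fully separate. Of the 75-base windows near the 3′ end of *Fdft1*, 47.8% also occurred in other genes, so its counts are less certain.

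**Figure D1:**
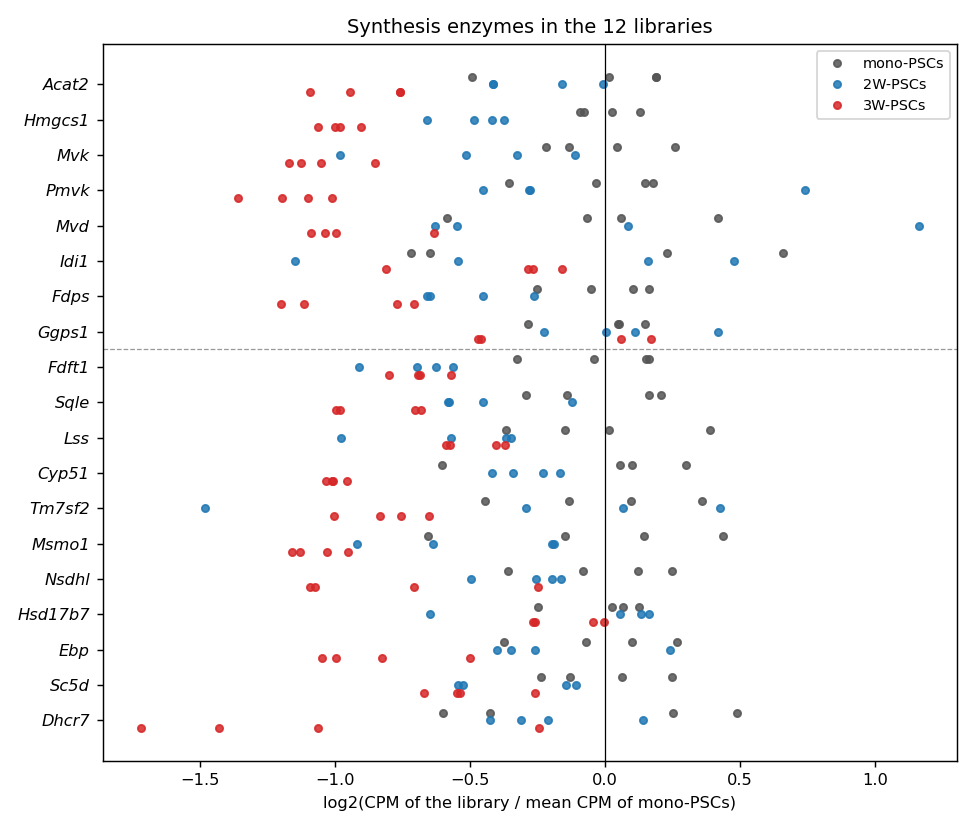
Each point is 1 library and each line of points 1 synthesis enzyme, drawn as the log2 ratio of its CPM to the mean CPM of the 4 mono-PSC libraries, with the mevalonate and isoprenoid enzymes above the dashed line and the squalene and sterol enzymes below it. The 3W-PSC points lie below every mono-PSC point in 14 of the 19 enzymes, and the 2W-PSC points are mostly between the other cultures or overlap them.

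Some of these calls rested on few libraries. The call of *Lss* was lost without mono-PSC replicate 1 or 4 or any single 3W-PSC library (adjusted p from 0.0585 to 0.111). That of *Sc5d* was lost without mono-PSC replicate 3 or 4 or 3W-PSC replicate 1, 3 or 4 (0.0642 to 0.0707). That of *Dhcr7* was lost without mono-PSC replicate 3 or 4 or 3W-PSC replicate 1 or 2 (0.0562 to 0.0748). When all 12 libraries were fitted together, *Lss* (adjusted p = 0.0936), *Sc5d* (0.0589), *Mvd* (0.0627) and *Tm7sf2* (0.075) were not called. The log2 fold changes stayed below 0 in each of these fits.

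*Ch25h*, which encodes the enzyme that hydroxylates cholesterol to make the oxysterol, was at 5 counts or fewer in every library outside 3W-PSCs. It was at 52.8, 47.4, 20.5 and 10.7 CPM in 3W-PSC replicates 1 to 4, from 397, 408, 161 and 82 counts. In mono-PSCs it had 3, 1, 0 and 1 counts, at 0.522, 0.198, 0 and 0.120 CPM, and in 2W-PSCs it had 2, 0, 5 and 0 counts, at 0.281, 0, 0.795 and 0 CPM. The 3W libraries were above all others but differed widely among themselves (32.9 ± 20.5 CPM, SD, n = 4). The log2 fold change was 7.21 against mono-PSCs (SE 0.65, adjusted p = 3.24e-07) and 6.73 against 2W-PSCs (SE 0.77, adjusted p = 0.000452). With so few counts in the other cultures the size of both depends on the prior count of the fit and on single libraries. The log2 fold change ranged from 6.86 to 8.06 against mono-PSCs with a library left out, highest without mono-PSC replicate 1, and from 6.31 to 7.96 against 2W-PSCs, highest without 2W-PSC replicate 3, and both calls held each time. 2W- and mono-PSCs were too sparse to be compared by edgeR and their levels overlapped. *Ch25h* shares 159 exonic bases with *Gm26902* on the opposite strand.

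Markers of the other cells in the flasks were counted beside these results. The summed level of 15 macrophage markers was 2.26 to 8.14 CPM in mono-PSCs and 3.20 to 10.8 CPM in 2W-PSCs, with 3W-PSCs at 9.65 to 61.1 CPM. *Adgre1* had 0 counts in every library, and 9 of the 15 were at 0 in mono-PSCs, 8 in 2W-PSCs and 1 in 3W-PSCs. *Ptprc*, *Tyrobp*, *Laptm5*, *Spi1*, *Aif1*, *Cd52* and *Ctss* had counts in 3W-PSCs but none in mono- or 2W-PSCs. Of 3 markers tested between 3W- and mono-PSCs, 1 was called higher, against 13.4% of all genes tested. It was *Csf1r* (log2 fold change 4.54, adjusted p = 0.000861), with means of 0.0871, 2.35 and 2.31 CPM in mono-, 2W- and 3W-PSCs. 3W-PSC replicate 4, with the highest macrophage sum, had the lowest *Ch25h* of the 3W libraries, whereas replicate 2, with the lowest macrophage sum of 9.65 CPM, had 47.4 CPM of *Ch25h*. The sum of 13 epithelial markers was 0.602 to 2.44 CPM in mono-PSCs and 76.2 to 149 CPM in 2W-PSCs, with 3W-PSCs at 52.6 to 91.3 CPM. All 5 of these tested between 2W- and mono-PSCs were called higher (log2 fold changes 5.04 to 8.53), against 0.839% of all genes tested. They were *Cdh1*, *Krt7*, *Krt8*, *Krt18* and *Krt19*. Between 3W- and mono-PSCs these and *Muc1*, all 6 tested, were called higher (4.42 to 7.86), against 13.4% of all genes. Of the markers not tested, *Cldn4* was at 0 in every library, and *Epcam* was at 0 in 2W-PSCs. The 12 stellate cell and fibroblast markers had counts in every library, with sums of 17482 to 19656 CPM in mono-PSCs and 20238 to 26760 CPM in 2W-PSCs, with 3W-PSCs at 11535 to 14404 CPM. Between 3W- and mono-PSCs 5 of these 12 were called lower and 2 higher, against 13.0% and 13.4% of all genes tested. Between 3W- and 2W-PSCs 6 of 11 tested were called lower and 1 higher, against 4.95% and 5.73%. The part of carried-over cancer cell or macrophage RNA in these results was not tested.

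In the LXR branch the call fell on a pump. *Abca1*, the membrane pump that moves cholesterol out of cells, was at 8.88, 3.97, 5.95 and 2.41 CPM in mono-PSCs, at 5.75, 3.20, 7.31 and 6.24 CPM in 2W-PSCs, and 3W-PSCs had 21.7, 40.8, 30.6 and 33.5 CPM. Every 3W library was above every library of the other cultures. The log2 fold change was 2.59 against mono-PSCs (SE 0.33, adjusted p = 1.44e-05) and 2.47 against 2W-PSCs (SE 0.29, adjusted p = 0.0005), a 6.02-fold and a 5.53-fold higher level. *Nr1h2*, which encodes LXR beta, was at 28.3 ± 5.77 CPM in mono-PSCs and 19.9 ± 6.04 CPM in 2W-PSCs, with 3W-PSCs at 25.4 ± 2.12 CPM, and passed no test. *Nr1h3*, which encodes LXR alpha, was sparse at 0.361 to 2.79 CPM in mono-PSCs and 2.67 to 5.86 CPM in 3W-PSCs (1.29, SE 0.55, adjusted p = 0.0903). It was called without mono-PSC replicate 1 (1.73, adjusted p = 0.0324). *Abcg1*, a second cholesterol pump, never exceeded 1.27 CPM and could not be tested.

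The genes that control the SREBPs went in both directions. *Insig1*, itself an SREBP target that retains SCAP, was at 260.2, 248, 254 and 238 CPM in mono-PSCs, at 167, 191, 184 and 166 CPM in 2W-PSCs, and 3W-PSCs had 82.0, 86.3, 169 and 85.1 CPM. Both co-cultures lay below mono-PSCs without overlap, and 3W-PSC replicate 3 stood apart from the other 3W libraries, within the 2W range. The 3W to mono log2 fold change was -1.25 (SE 0.21, adjusted p = 0.000264). *Scap*, the sterol-sensing escort, rose, with 40.7, 30, 26 and 30.8 CPM in mono-PSCs against 50.6, 53.6, 52.5 and 55.6 CPM for 3W-PSCs (0.73, SE 0.17, adjusted p = 0.00475). Its groups did not overlap, and it shares 985 exonic bases with *5830462I19Rik* on the opposite strand. *Scap* was not called when all 12 libraries were fitted together (adjusted p = 0.0621). *Srebf2*, which encodes SREBP2, passed no test, at 140.3 ± 37.7 CPM in mono-PSCs and 143 ± 54.8 CPM in 2W-PSCs, with 3W-PSCs at 152 ± 35.3 CPM. Its 3W to mono log2 fold change was 0.10 (SE 0.20, adjusted p = 0.745), and *Insig2*, the second INSIG gene, was at -0.14 (SE 0.21, adjusted p = 0.645).

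*Srebf1*, which encodes the SREBP1 factors of fatty acid synthesis and is a known LXR target, was uneven. It was at 50.2, 5.95, 17.5 and 13.7 CPM in mono-PSCs, at 22.7, 6.64, 44.2 and 8.48 CPM in 2W-PSCs, and 3W-PSCs had 45.9, 60.8, 51.3 and 44.2 CPM. Mono-PSC replicate 1 lay within the 3W range, whereas the other mono libraries were well below it. The log2 fold change was 1.20 (SE 0.40, adjusted p = 0.0329), and the call was lost without mono-PSC replicate 2, 3 or 4 or 3W-PSC replicate 2 or 3 (adjusted p from 0.0614 to 0.109) and with DESeq2 (adjusted p = 0.144) or with all 12 libraries in one fit (adjusted p = 0.148). Without mono-PSC replicate 1 the log2 fold change was 2.01.

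**Figure D2:**
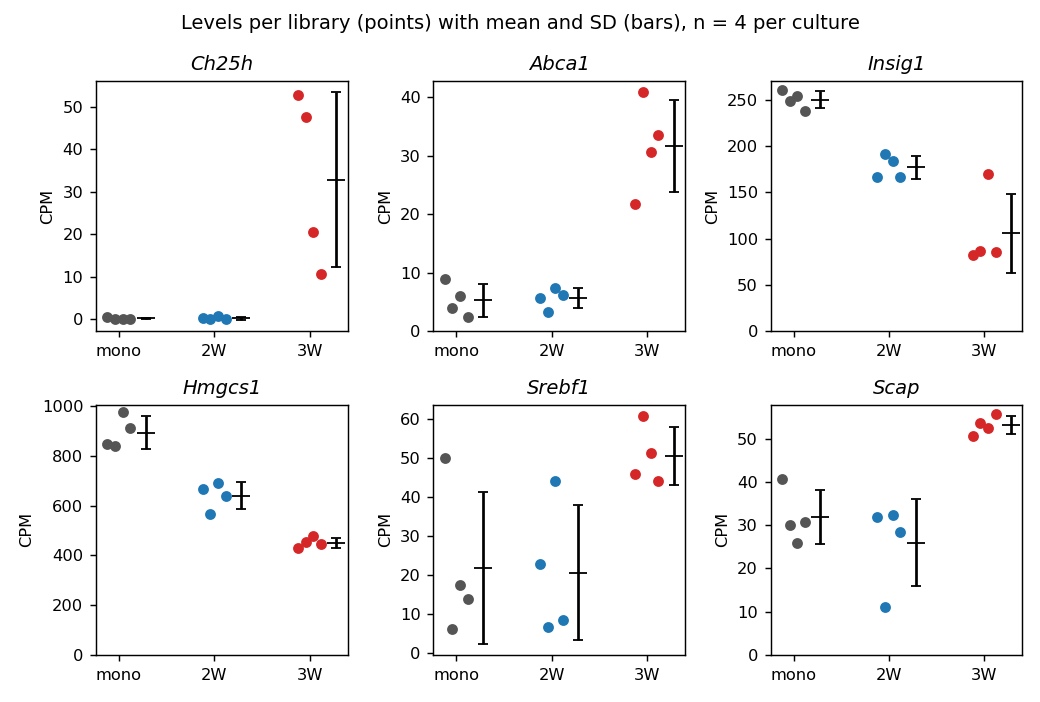
Levels in CPM (vertical axes, each from 0) of *Ch25h*, *Abca1*, *Insig1*, *Hmgcs1*, *Srebf1* and *Scap* in the 3 cultures; points are libraries in the order of their replicate numbers, and the bars beside them give the mean and SD of 4 libraries. *Ch25h*, *Abca1* and *Scap* are above all other libraries in 3W-PSCs, *Hmgcs1* steps down from mono- to 2W- to 3W-PSCs, and *Srebf1* overlaps between the cultures.

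Of the 3 sterol carriers on the fixed list only *Stard4* passed the test. *Stard4*, an SREBP2 target that moves cholesterol between membranes, was at 213, 233, 230.0 and 259.7 CPM in mono-PSCs and at 136, 152, 195 and 168 CPM in 3W-PSCs, with no overlap (-0.53, SE 0.15, adjusted p = 0.0159). The call was lost without mono-PSC replicate 4 or 3W-PSC replicate 1 or 2 (adjusted p from 0.0576 to 0.0729). *Npc1* and *Npc2*, which export cholesterol from lysosomes, were at 61.5 ± 7.06 and 1428 ± 122 CPM in 3W-PSCs against 51.6 ± 23.0 and 1099 ± 220.2 CPM in mono-PSCs (adjusted p = 0.53 and 0.113). All 3W-PSC libraries were nonetheless above all mono-PSC libraries for *Npc2*.

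The addition of macrophages was assessed by comparing 3W- with 2W-PSCs. Of the 31 genes tested, 4 fell and 3 rose, against 10.7% of the 11513 genes tested, of which 4.95% were called lower and 5.73% higher. Those that fell were *Pmvk* (log2 fold change -1.18, SE 0.26, adjusted p = 0.0151), *Cyp51* (-0.72, SE 0.15, adjusted p = 0.0105), *Acat2* (-0.65, SE 0.17, adjusted p = 0.0319) and *Hmgcs1* (-0.51, SE 0.15, adjusted p = 0.0479). *Ch25h*, *Abca1* and *Scap* rose, *Scap* by 1.02 (SE 0.28, adjusted p = 0.0413). Over the 19 enzymes the median was -0.51 against 0.00 over all genes, 17 of 19 were below 0, and in 9 every 3W library lay below every 2W library, against 9.71% of the genes tested. *Ch25h*, *Abca1* and *Scap* were the 3 genes in which every 3W library lay above, against 11.6% of the genes tested. *Mvd* (-1.14, adjusted p = 0.0639), *Msmo1* (-0.61, adjusted p = 0.0651), *Ebp* (-0.66, adjusted p = 0.0528) and *Insig1* (-0.75, adjusted p = 0.0683) came near the threshold, whereas *Fdft1* (0.01, SE 0.15) and *Lss* (0.06, SE 0.17) were the enzymes not below 0.

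The number of enzymes called in this comparison depended on single libraries. 2W-PSC replicate 2 stood apart in several genes, with *Mvd* at 1289 CPM against 372 to 611 CPM in the other 2W libraries, *Pmvk* at 211 CPM against 92.3 to 104 CPM, and *Tm7sf2* at 14.3 CPM against 32.6 to 53.6 CPM. It had fewer counts for a given CPM, with *Hmgcs1* at 566 CPM from 2300 counts there and at 638 CPM from 3986 counts in 2W-PSC replicate 4. The lowest library total of the 12, 4561817 counts, was in 2W-PSCs. Without 2W-PSC replicate 2, 11 enzymes and *Insig1* were called lower, *Mvd* with a log2 fold change of -0.61 (adjusted p = 0.0299), and *Npc2* was called higher. Without 3W-PSC replicate 2 no enzyme was called, and without 3W-PSC replicate 1, without 3W-PSC replicate 4 or without 2W-PSC replicate 4 the number was 1, 2 and 2. Calls among all genes moved too, from 497 to 2107 with 1 library left out, in place of 1230, so this dependence is not particular to the enzymes. *Hmgcs1* was called with 2W-PSC replicate 2 left out but with no other library left out (adjusted p from 0.071 to 0.148), nor without a filter on low counts (0.105) or with a minimum of 10 counts per library (0.0569), and *Acat2* lost its call without 2W-PSC replicate 4 or any 3W-PSC library (0.0572 to 0.127). *Pmvk* lost it without 3W-PSC replicate 1 or 2 (0.0603 and 0.0609) and *Cyp51* without 3W-PSC replicate 2 (0.0512). The calls of *Ch25h* and *Abca1* held with any single library left out, whereas that of *Scap* was lost without 2W-PSC replicate 1 or 4 or any 3W-PSC library (adjusted p from 0.0549 to 0.113).

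For 2W- against mono-PSCs, none of the 30 genes tested was called by edgeR or by DESeq2, and 6 had an unadjusted p under 0.05, against 0.991% called (0.839% higher and 0.152% lower) and 7.4% at an unadjusted p under 0.05 among 11199 genes. Those 6 were *Hmgcs1*, *Fdps*, *Fdft1*, *Lss*, *Insig1* and *Nr1h3*. The enzymes had a median log2 fold change of -0.25, from -0.67 to 0.24, with 16 of 19 below 0, against a median of 0.02 over all genes. *Fdft1* changed most among them, at 119, 166, 145 and 167 CPM in mono-PSCs and 91.9, 79.2, 101 and 96.6 CPM in 2W-PSCs (-0.67, SE 0.19, adjusted p = 0.159), and it was called when all 12 libraries were fitted together (-0.69, adjusted p = 0.0285). Its 2W libraries all lay below the mono libraries, as did those of *Hmgcs1* (-0.46, adjusted p = 0.49), *Fdps* (-0.47, adjusted p = 0.517), *Insig1* (-0.48, adjusted p = 0.395) and *Stard4* (-0.22, adjusted p = 0.975). These 5 of 30 genes compare with 2.52% of the genes tested, and no gene had all its 2W libraries above, against 3.23%. The comparisons of 2W- and 3W-PSCs with mono-PSCs share the mono libraries and are not independent of each other.

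**Figure D3:**
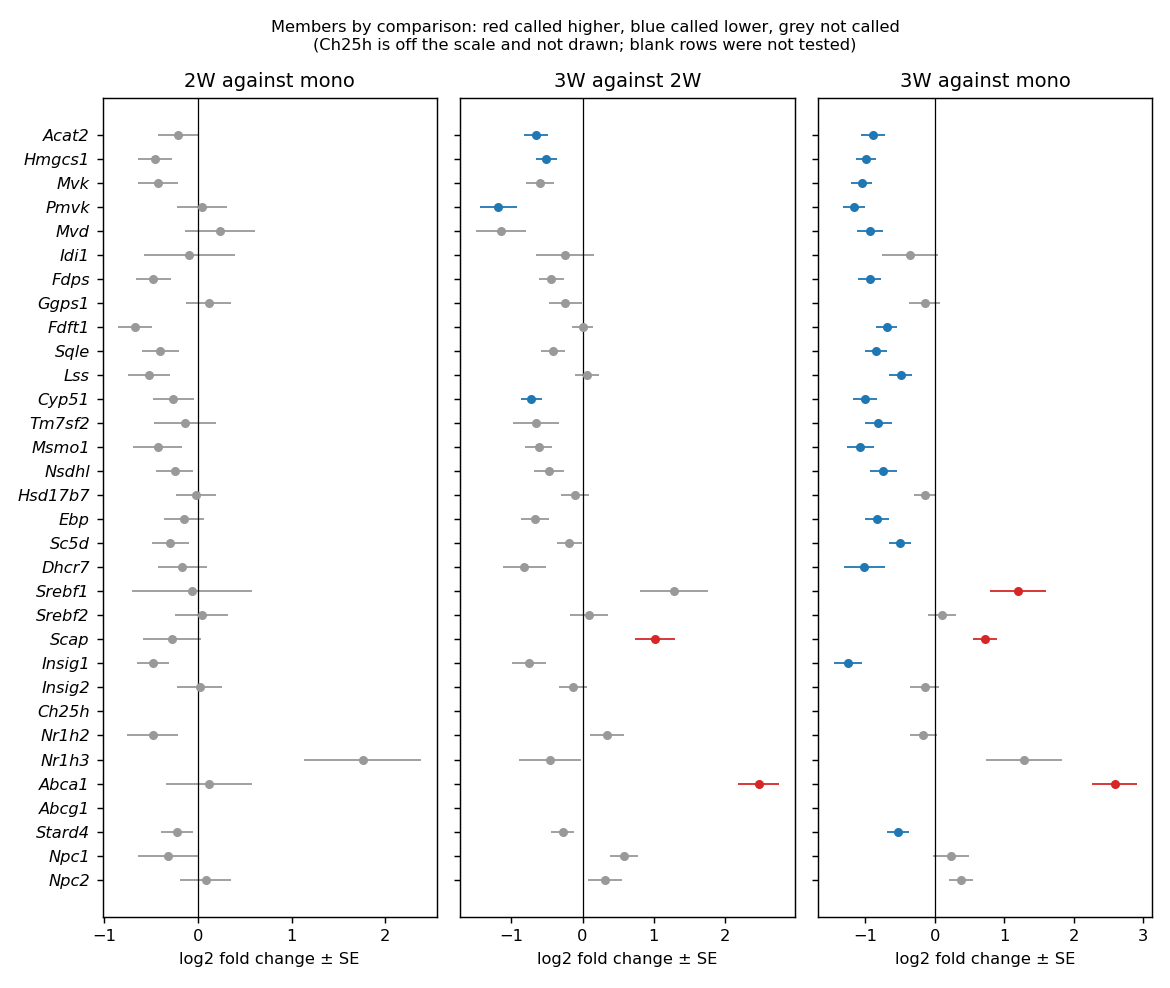
Log2 fold change (points) with its standard error (bars) from edgeR for each gene in the 3 comparisons, red where called higher, blue where called lower and grey where not called; the panels have different horizontal scales, and *Ch25h* is off the scale. The 16 blue enzymes of the 3W to mono panel contrast with 4 in the 3W to 2W panel and none in the 2W to mono panel.

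Summed over the 19 enzymes, the level was lowest in 3W-PSCs. The sum was 5192, 6440.3, 7939 and 7476 CPM in mono-PSC replicates 1 to 4, 4814, 5882, 5324 and 5874 CPM in 2W-PSCs and 3402, 3374, 3784 and 3901 CPM in 3W-PSCs. All 3W sums were below all others, while 2W sums overlapped that of mono-PSC replicate 1. The mean of 3W-PSCs was 53.5% and that of 2W-PSCs 80.9% of the mono mean, with *Ch25h* near 0 in both mono- and 2W-PSCs. Within 3W-PSCs, replicates 1 and 2 had *Ch25h* at 52.8 and 47.4 CPM beside enzyme sums of 3402 and 3374 CPM, and replicates 3 and 4 had *Ch25h* at 20.5 and 10.7 CPM beside sums of 3784 and 3901 CPM. Across the cultures the enzymes thus stood lowest where *Ch25h* stood highest, but 4 libraries within 1 culture are too few to test a relation.

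**Figure D4:**
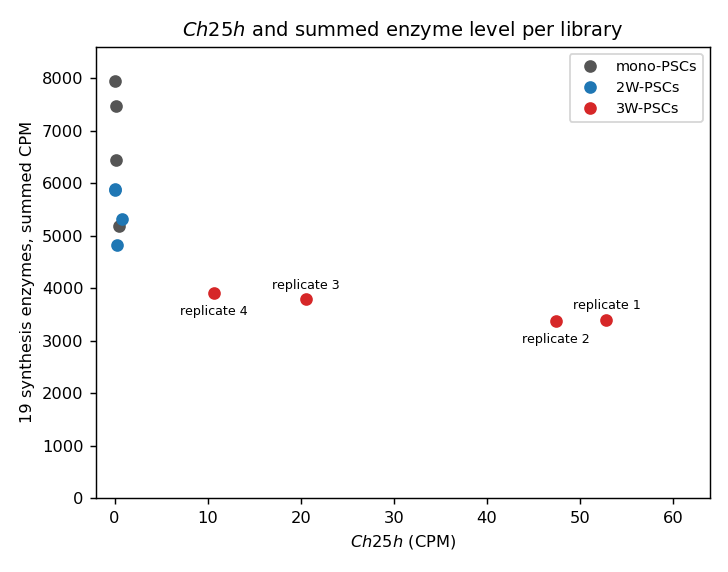
Each point is 1 library, with the *Ch25h* level in CPM on the horizontal axis and the summed CPM of the 19 synthesis enzymes on the vertical axis. The mono- and 2W-PSC libraries are stacked near 0 CPM of *Ch25h* with sums from 4814 to 7939 CPM, and the 4 labelled 3W-PSC libraries lie at 10.7 to 52.8 CPM of *Ch25h* with sums from 3374 to 3901 CPM.

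Further genes of the same pathways, 57 in all, changed less uniformly. Of the 47 tested between 3W- and mono-PSCs, 12 fell and 6 rose, with a median log2 fold change of -0.18, against 13.0% of all genes tested called lower, 13.4% called higher and a median of 0.01. Of the 12 genes of the additional SREBP2 list 3 fell and 2 rose. *Erg28*, which scaffolds sterol enzymes (-0.83, adjusted p = 0.00106), *Acss2*, an acetyl-CoA synthetase (-0.84, adjusted p = 0.008), and *Tmem97*, a sterol-responsive membrane protein (-0.60, adjusted p = 0.0252), fell. *Lpin1*, a phosphatidate phosphatase, rose (0.87, adjusted p = 0.00127).

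Of 10 other LXR targets 8 were tested between 3W- and mono-PSCs, and the called genes went in both directions. Among the 8, 1 was called higher and 3 lower, against 13.4% and 13.0% of all genes tested. In 6 of the 8 the log2 fold change was below 0, against 49.1% of all genes tested. *Arl4c*, a small GTPase, was at 26.3 ± 1.38 CPM in mono-PSCs and 79.2 ± 16.5 CPM in 3W-PSCs (1.58, SE 0.18, adjusted p = 3.71e-06) and also rose against 2W-PSCs (1.30, adjusted p = 0.00269). *Lpl*, the lipoprotein lipase, had mean levels of 312, 145 and 50.3 CPM in mono-, 2W- and 3W-PSCs and fell in both co-cultures against mono-PSCs (-1.08, adjusted p = 0.0398, for 2W and -2.63, adjusted p = 2.18e-08, for 3W). *Pltp*, a phospholipid transfer protein (-1.07, adjusted p = 0.00075), and *Scd1*, a fatty acid desaturase (-0.60, adjusted p = 0.0104), fell as well in 3W-PSCs. All 10 genes of SREBP1-driven fatty acid synthesis had a log2 fold change below 0 between 3W- and mono-PSCs, against 49.1% of all genes tested. Of the 10, 4 were called lower, against 13.0% of all genes tested. They were *Scd1* again, *Acsl3* (-1.29, adjusted p = 0.000129), *Acly* (-0.63, adjusted p = 0.00913) and *Me1* (-0.63, adjusted p = 0.00286). *Acsl3* activates fatty acids, *Acly* makes cytosolic acetyl-CoA and *Me1* supplies NADPH.

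Oxysterol-handling genes were mostly too sparse to compare, with 5 of 12 tested. *Gpr183*, the receptor for oxysterols derived from the CH25H product, had 0 counts in all 12 libraries, and *Cyp7b1*, which converts that product further, had 4 counts in total, all in 3W-PSCs; both were picked out after their values were seen. *Soat1*, which esterifies cholesterol for storage, rose from 66.2 to 94.2 CPM (0.50, SE 0.15, adjusted p = 0.0175). Of 14 uptake and trafficking genes 13 were tested, of which 2 rose and 3 fell, against 26.4% of all genes tested that were called in either direction. *Syvn1*, a ubiquitin ligase (1.73, adjusted p = 0.00428), and *Lrp1*, a lipoprotein receptor (1.23, adjusted p = 0.00538), rose. *Scarb1*, the HDL receptor (-0.54, adjusted p = 0.0137), and *Stard5*, a sterol carrier (-0.64, adjusted p = 0.0327), were among those that fell.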

How the data were processed

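Libraries were made from total RNA of sorted PSCs with a kit that reads the 3′ ends of mRNA. Per the study's methods the authors used STAR to align single reads (genome GRCm38) and featureCounts to count reads in genes; the deposited values are whole-number counts, not normalised, and the strand setting of the counting is not given in the sources used here. Library totals were 4561817 to 8093368 counts. Levels are counts per 1000000 (CPM) scaled by TMM over all 12 libraries. Pairs of cultures were compared with edgeR 4.0.16 in R 4.3.3 (filterByExpr, TMM, quasi-likelihood test, Benjamini-Hochberg adjustment over all genes tested, adjusted p under 0.05), with DESeq2 1.42.0 as an alternative. Standard errors were derived from the F statistics. The fits were tested on simulated data. Positions come from GENCODE vM21 and promoters from RefSeq, both on GRCm38. All 32 genes are named; of the other pathway lists every called gene is named, or the 4 with the lowest adjusted p in 3W against mono where a list has more than 4. Results for some genes of these lists are not reported here. The genes, lists and motifs were chosen with earlier results of these data known. The labels call the samples biological replicates and do not say how the cultures were separated in time.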

Additional observations from a re-analysis of the deposited data

Results flagged for a closer look

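Of 96 sets of 4 libraries (each gene in each culture), 4 held a library far from the other ones by Dixon's test, where chance gives about 1 in 20. In 2W-PSCs, replicate 2 was the odd library each time: *Pmvk* was at 211 CPM there against 92.3 to 104 CPM in the others, *Hsd17b7* at 70.3 CPM against 114 to 123 CPM, and *Stard4* at 209 CPM against 192 to 195 CPM. In 3W-PSCs, *Insig1* was at 169 CPM in replicate 3 against 82.0 to 86.3 CPM in the others. Replicate 3 was also the highest 3W library for *Dhcr7*, at 37.3 CPM against 13.4 to 21.2 CPM, and for *Nsdhl*, at 256 CPM against 143 to 186 CPM. Without it the *Insig1* log2 fold change was -1.57 against mono-PSCs and -1.07 against 2W-PSCs, where it was then called (adjusted p = 0.00449). 2W-PSC replicate 2 had fewer counts for a given CPM than the other 2W libraries. The cause of these deviations was not tested.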

How the results depend on the processing

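The 19 enzymes had a median log2 fold change below 0 in each comparison under every alternative run, and no scaling moved the median of all genes by over 0.1. Between 3W- and mono-PSCs, 13 to 16 enzymes were called lower with any single library left out. Among all genes, 2228 to 4266 were called in either direction in these fits, in place of 3054. With all 12 libraries in one fit, *Lss*, *Sc5d*, *Mvd* and *Tm7sf2* were not called, as given above. The numbers called moved most in the other comparisons. Between 2W- and mono-PSCs, 111 genes of the whole table were called, 177 without a filter on low counts, 57 with at least 10 counts in every library, 262 with all 12 libraries in one fit, 275 with DESeq2 and 61 to 233 with a library left out, the most without 2W-PSC replicate 2. The fit of all 12 libraries called 1 gene lower here, the enzyme *Fdft1*, against 0 with any library left out. In the same fit 2 genes were called higher between 3W- and mono-PSCs, in place of 4. Between 3W- and 2W-PSCs, 4 genes were called lower, 7 with all 12 libraries in one fit and 9 (8 of them enzymes) with DESeq2; leaving out a library gave 0 to 12 (0 to 11 enzymes), and 497 to 2107 of all genes in place of 1230.0. Leaving out a library gave 3 to 5 genes called higher between 3W- and mono-PSCs and 2 to 4 between 3W- and 2W-PSCs. The fits with fewer libraries have fewer degrees of freedom, and otherwise the cause was not tested.

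Changes of sign fell only on log2 fold changes that were not called. *Insig2* (2W to mono) was at -0.012 without a filter and at -0.0042 with all 12 libraries. *Fdft1* (3W to 2W) was at -0.018 with DESeq2's size factors, -0.017 without *Gm26924* and the mitochondrial genes and -0.014 with DESeq2. With a library left out, the 2W to mono log2 fold change ranged for *Pmvk* from -0.32 to 0.15, *Mvd* from -0.32 to 0.43, *Idi1* from -0.37 to 0.21, *Ggps1* from -0.015 to 0.21, *Tm7sf2* from -0.41 to 0.11, *Hsd17b7* from -0.11 to 0.13, *Dhcr7* from -0.34 to 0.039, *Srebf1* from -0.76 to 0.74, *Srebf2* from -0.24 to 0.21, *Insig2* from -0.11 to 0.11, *Abca1* from -0.13 to 0.48 and *Npc2* from -0.19 to 0.22. For 3W to mono it ranged for *Srebf2* from -0.049 to 0.25 and *Npc1* from -0.0079 to 0.48, and for 3W to 2W it ranged for *Idi1* from -0.46 to 0.021, *Fdft1* from -0.062 to 0.046, *Lss* from -0.066 to 0.12 and *Srebf2* from -0.089 to 0.36.

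The labels number the libraries 1 to 4 in each culture without saying that a number marks a shared day or flask. The deviations of same-numbered libraries correlated at 0.099 to 0.34 for 2W and mono, 0.0026 to 0.11 for 3W and mono and -0.048 to 0.15 for 3W and 2W, so the numbers were not taken to pair the samples. With the replicate number as a block, 752 genes were called between 3W- and 2W-PSCs, and *Pmvk* (-0.031) and *Srebf2* (-0.0050) changed sign between 2W- and mono-PSCs. The calls of *Lss* between 3W- and mono-PSCs (adjusted p = 0.0512) and of *Acat2* (0.08), *Hmgcs1* (0.103) and *Scap* (0.0617) between 3W- and 2W-PSCs were lost, and *Ebp* (0.048) was gained there.

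At these depths *Ch25h* outside 3W-PSCs, *Abcg1* and *Idi1* rest on few counts.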
